A study of Mus musculus with 12 samples.

Results

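On mouse chromosome 12, 10 genes flanking the immunoglobulin heavy chain (IgH) locus were compared between arrays labelled splenic B and T, before and after activation. Crip1, Crip2, Mta1, Brf1, Pacs2 and Jag2 lie beyond the constant region genes, and Zfp386, Vipr2, Esyt2 and Ptprn2 lie beyond the most distal variable (V) segments. They were chosen by name and position, with earlier results of these data known, and make up 10 of the 19937 genes measured. Other coding genes lie between some of them. The study compared the nuclear location of productive and non-productive IgH alleles, mainly through the DNA contacts they make. Its expression data served, among other uses, to score transcription in the regions that IgH contacts. RNA was hybridised to 12 gene expression arrays of mouse spleen cells from C57Bl/6 x FVB animals, 3 for each of 4 labelled groups. The resting B samples are labelled as mature CD43 negative splenic cells and the resting T samples as mature B220 negative ones. Activated B samples are labelled as 4 days in culture with anti-CD40 and IL-4. Activated T samples are labelled as 4 days with anti-CD3, anti-CD28 and IL-2. The labels do not tie the arrays to separate mice, so the p-values rest on the spread among the arrays as given, which may be technical.

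The heavy chain locus is assembled in developing B cells by joining V, D and J segments, and its constant genes are exchanged in activated B cells by class switching. An enhancer between the J segments and the constant genes, and a regulatory region past the last constant gene, drive its transcription in the B lineage. The neighbours encode proteins of different kinds. Crip1 and Crip2 are small cysteine-rich LIM domain proteins, Mta1 is a subunit of the nucleosome remodelling and deacetylase complex NuRD, and Brf1 is a subunit of the initiation factor TFIIIB of RNA polymerase III. Pacs2 is a sorting protein active at contacts of endoplasmic reticulum and mitochondria, and Jag2 is a ligand of Notch receptors. On the V side, Zfp386 is a zinc finger protein, Vipr2 is the VPAC2 receptor for VIP and PACAP, Esyt2 is an extended synaptotagmin that moves lipid where endoplasmic reticulum and plasma membrane touch, and Ptprn2 is a protein of dense core vesicles in neuroendocrine cells.

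In all 4 groups the levels of most listed lineage genes were opposite to what the labels name. Every group is therefore named here by its label only, and every direction is that of the labels. Cd3e, part of the T cell antigen receptor, had a log2 level of 10.61 ± 0.24 (SD, n = 3 here and below) on the arrays labelled resting B and 10.07 ± 0.14 on those labelled activated B, against 5.93 ± 0.36 and 6.43 ± 0.28 on those labelled resting and activated T. Cd79a, part of the B cell antigen receptor, had 8.27 ± 0.51, 4.50 ± 0.49, 10.45 ± 0.28 and 11.64 ± 0.14 in the same order, and the division gene Mki67 had 6.56 ± 0.42, 10.58 ± 0.01, 10.18 ± 0.08 and 6.31 ± 0.54. Both receptor genes were therefore highest where the label names the other lineage, and the division gene was high under the labels activated B and resting T. The mean over 8 of 9 listed T cell markers ranged from 10.4 to 10.5, 9.94 to 10.1, 5.52 to 5.93 and 5.63 to 6.60, and that over 8 of 9 B cell markers from 7.75 to 9.0, 5.05 to 5.56, 9.86 to 10.2 and 11.6 to 11.7. The arrays labelled resting B thus carried signal of both lineages, and all 8 B cell markers were higher there than under activated B. Of these 8, 1 was also higher there than under resting T, Cr2 at 7.83 ± 1.0 against 6.52 ± 0.22. The mean over 8 of 8 myeloid markers ranged from 6.93 to 7.51, 4.82 to 4.93, 5.98 to 6.16 and 6.60 to 6.99. The mean over 5 of 6 division markers lay at 5.73 to 6.21 and near 10.1 under the labels resting and activated B, and at 9.63 to 9.72 and 5.54 to 6.18 on those labelled resting and activated T. The part of cell type, division and other cells in the differences given next was not tested, and in bulk RNA fewer cells of a type and less RNA per cell cannot be told apart.

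A level here is a log2 probe set signal after the authors' RMA, and a background of 5.21 was set at the 95th percentile over 1027 genes of olfactory receptors, which these cells have little use for. The mean over all arrays lay above it for 9 of the 10 neighbours, the exception being Vipr2. Every member is read by 1 probe set, and levels are compared between arrays, never between genes. In the RefSeq gene order of GRCm38.p6, 2 coding genes lie between Crip1 and the locus on the constant side and 11 between Jag2 and the locus. On the V side Zfp386 is the first coding gene, and 5 lie between Ptprn2 and the locus.

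The promoter sequences of 4 neighbours are shown, those of the 2 genes on each side with the largest differences between groups. Each is the 250 bases before the RefSeq transcription start on GRCm38.p6, plus strand, written 5′ to 3′. The windows are Crip1 chr12:113151762-113152011, Mta1 chr12:113098028-113098277, Zfp386 chr12:116047474-116047723 and Esyt2 chr12:116280972-116281221. Capitals mark the GC box GGGCGG on either strand.
Crip1: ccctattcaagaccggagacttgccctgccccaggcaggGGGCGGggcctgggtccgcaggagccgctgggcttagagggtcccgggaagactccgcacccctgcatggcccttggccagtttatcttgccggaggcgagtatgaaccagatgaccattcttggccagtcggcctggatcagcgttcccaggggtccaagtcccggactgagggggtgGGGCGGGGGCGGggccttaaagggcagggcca
Mta1: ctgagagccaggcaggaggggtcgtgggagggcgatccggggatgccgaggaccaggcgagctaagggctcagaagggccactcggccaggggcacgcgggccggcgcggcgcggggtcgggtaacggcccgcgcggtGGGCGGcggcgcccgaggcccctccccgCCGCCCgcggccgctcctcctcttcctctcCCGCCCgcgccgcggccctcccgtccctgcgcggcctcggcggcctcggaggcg
Zfp386: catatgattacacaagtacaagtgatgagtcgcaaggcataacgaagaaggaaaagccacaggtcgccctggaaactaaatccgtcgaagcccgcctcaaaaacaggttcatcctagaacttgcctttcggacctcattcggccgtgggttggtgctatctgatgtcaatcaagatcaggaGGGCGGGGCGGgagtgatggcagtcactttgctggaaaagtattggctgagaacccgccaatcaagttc
Esyt2: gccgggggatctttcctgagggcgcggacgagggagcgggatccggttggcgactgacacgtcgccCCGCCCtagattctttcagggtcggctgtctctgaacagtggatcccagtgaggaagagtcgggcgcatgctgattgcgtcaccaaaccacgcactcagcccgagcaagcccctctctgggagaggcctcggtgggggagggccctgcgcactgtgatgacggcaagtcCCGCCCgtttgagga
A window was at hand for 9 of the 10 neighbours, and all 9 held a GC box, as did 32.7% of the 32851 RefSeq windows of the same length. An ETS core, CCGGAAG on either strand, was found in 1 of the 9, that of Pacs2, against 6.91% of all windows. The E box CACGTG was in 0 of the 9 and in 6.02% of all. CpG dinucleotides numbered 12 to 54 per window in the neighbours, against a median of 6. These are letters in a sequence and say nothing of what binds there.

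Crip1, the third coding gene from the constant end, differed most among the neighbours, and its window holds 3 GC boxes. Crip1 read 9.71, 9.66 and 9.62 on the arrays labelled resting B and 9.87, 10.04 and 9.99 on those labelled activated B. On the arrays labelled resting T it read 7.08, 6.96 and 6.94, and for the label activated T 9.40, 9.22 and 9.14. No 2 groups overlapped, and the arrays labelled resting T stood far below the others. The level was 9.66 ± 0.04, 9.97 ± 0.09, 6.99 ± 0.07 and 9.25 ± 0.14 in the order resting B, activated B, resting T and activated T. All 6 comparisons of 2 groups passed limma's test with Benjamini-Hochberg adjustment over all genes, the largest being activated B over resting T, a log2 difference of 2.97 ± 0.09 (SE) or 7.85-fold, adjusted p = 7.08e-13. Labelled activation went with a rise of 2.26 in T (adjusted p = 1.31e-11) and of 0.30 in B (adjusted p = 0.0168). The latter was lost after quantile normalization, at 0.13 and adjusted p = 0.315.

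**Figure D1:**
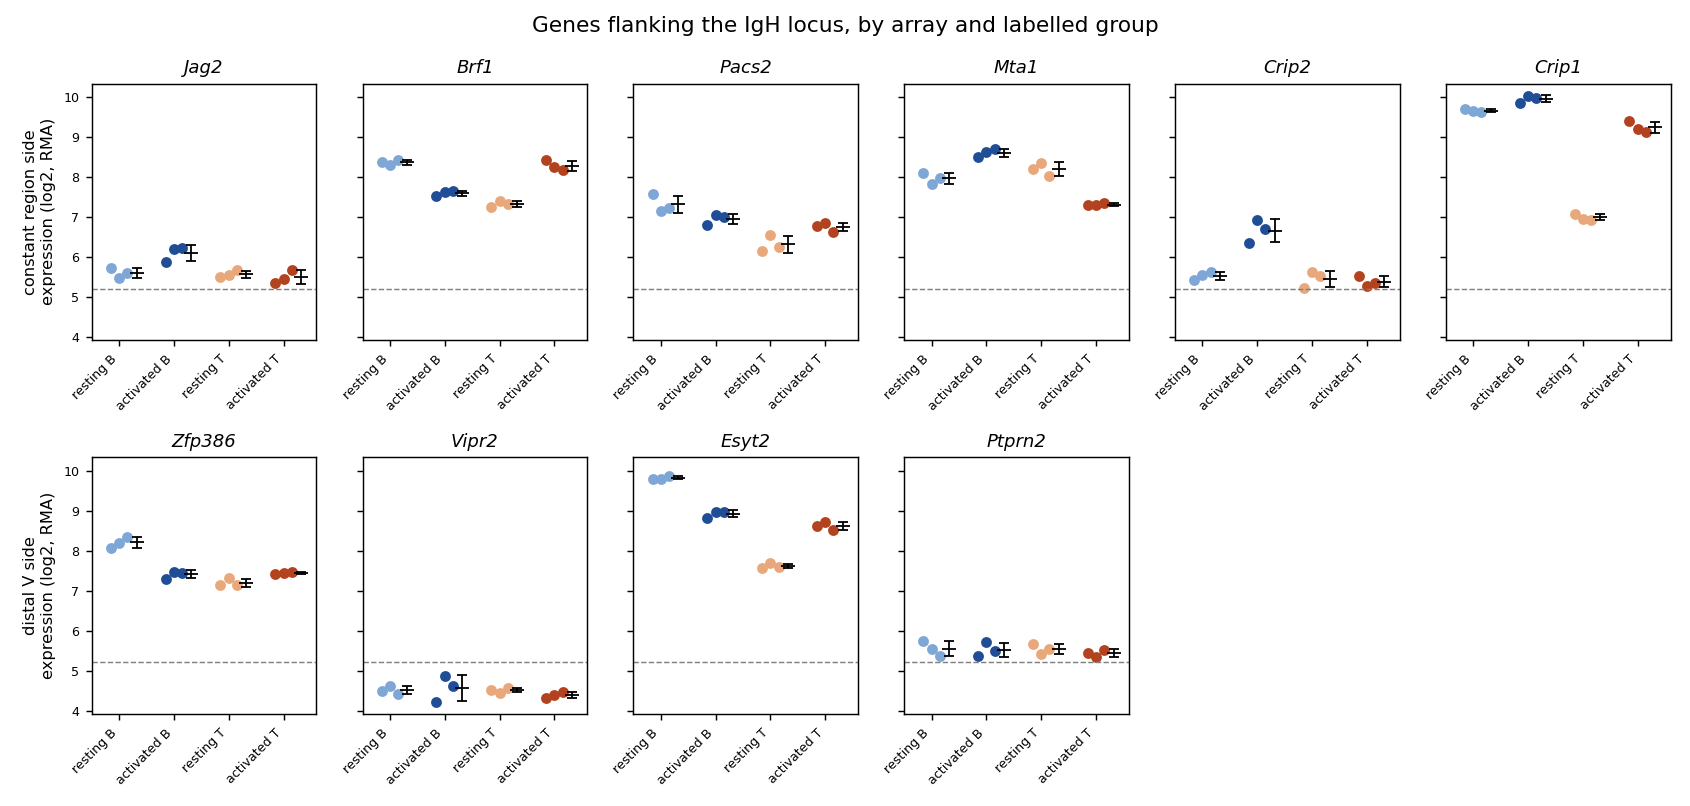
Log2 RMA level of each neighbour (vertical axis of each panel) on each of the 12 arrays (points) by labelled group, with the group mean ± SD of 3 arrays beside the points and the background of 5.21 as a dashed line. Crip1 is lowest on the arrays labelled resting T, Crip2 and Jag2 highest on those labelled activated B, Zfp386 and Esyt2 highest on those labelled resting B, and Vipr2 lies under the background on every array.

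Crip2, 2 genes further out, was raised on the arrays of 1 label. Crip2 read 5.43, 5.55 and 5.63 on the arrays labelled resting B and 6.36, 6.93 and 6.69 on those labelled activated B. On the arrays labelled resting T it read 5.22, 5.62 and 5.52, and for the label activated T 5.53, 5.27 and 5.35. All 3 activated B arrays lay above the 9 others, which overlapped with each other near the background. Its mean on them, 6.66 ± 0.29, exceeded that of resting B by 1.13 ± 0.14 (adjusted p = 4.23e-06), of resting T by 1.21 (adjusted p = 3.29e-06) and of activated T by 1.28 (adjusted p = 7.25e-07) on the log2 scale. Jag2, the Notch ligand at the outer end of the group, had the same order with a smaller step. Jag2 read 5.73, 5.47 and 5.59 on the arrays labelled resting B and 5.88, 6.21 and 6.22 on those labelled activated B. On the arrays labelled resting T it read 5.50, 5.54 and 5.67, and for the label activated T 5.35, 5.44 and 5.68. Again the arrays labelled activated B were the highest 3 of 12. The log2 difference was 0.50 ± 0.12 from resting B (adjusted p = 0.00245), 0.53 from resting T (adjusted p = 0.00272) and 0.61 from activated T (adjusted p = 0.000389). For both genes no comparison among the other 3 groups passed the test.

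Mta1, whose window also holds 3 GC boxes, and Brf1 moved in opposite directions with labelled activation. Mta1 read 8.10, 7.83 and 7.98 on the arrays labelled resting B and 8.50, 8.63 and 8.71 on those labelled activated B. On the arrays labelled resting T it read 8.22, 8.36 and 8.02, and for the label activated T 7.30, 7.30 and 7.35. The arrays labelled activated T were the lowest and those labelled activated B the highest, with resting B and resting T in between and overlapping. Brf1 read 8.39, 8.31 and 8.44 on the arrays labelled resting B and 7.53, 7.63 and 7.65 on those labelled activated B. On the arrays labelled resting T it read 7.26, 7.42 and 7.33, and for the label activated T 8.43, 8.27 and 8.18. Here the labels resting B and activated T overlapped at the top and those labelled resting T were lowest. With labelled activation Mta1 rose by 0.64 ± 0.10 in B (adjusted p = 9.11e-05) and fell by 0.88 in T (adjusted p = 3.39e-06), whereas Brf1 fell by 0.78 ± 0.09 in B (adjusted p = 3.07e-06) and rose by 0.95 in T (adjusted p = 3.27e-07). Activated B exceeded activated T by 1.30 in Mta1 (adjusted p = 2.16e-08) and was 0.69 lower in Brf1, adjusted p = 8.59e-06. Between resting B and resting T, Mta1 differed by -0.23, which did not pass (adjusted p = 0.106), and Brf1 by 1.04 (adjusted p = 9.10e-08). The division markers were high under the labels activated B and resting T, where Mta1 was at its 2 highest group means and Brf1 at its 2 lowest. The difference of 0.26 in Brf1 between activated B and resting T (adjusted p = 0.0492) is at the threshold and was lost when only those arrays were fitted (adjusted p = 0.0666).

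Pacs2, the sorting protein gene between Mta1 and Brf1, was highest under the label resting B. Pacs2 read 7.57, 7.15 and 7.23 on the arrays labelled resting B and 6.80, 7.05 and 6.99 on those labelled activated B. On the arrays labelled resting T it read 6.15, 6.54 and 6.25, and for the label activated T 6.77, 6.86 and 6.64. The arrays labelled resting T were the lowest, and the 2 activated groups overlapped. Resting B exceeded resting T by 1.01 ± 0.13 (adjusted p = 5.67e-06) and activated T by 0.57 (adjusted p = 0.00337). The difference of activated from resting B, -0.37 with adjusted p = 0.0283, was lost with arrays centred on their medians, at -0.26 and adjusted p = 0.118, and that of activated from resting T, 0.44 with adjusted p = 0.0115, was lost without resting T array 4 (adjusted p = 0.0613) or activated T array 5 (adjusted p = 0.0533). Activated B and activated T, 0.19 apart, did not pass, with adjusted p = 0.256.

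On the V side Esyt2, with 2 GC boxes in its window, differed in every comparison. Esyt2 read 9.82, 9.81 and 9.88 on the arrays labelled resting B and 8.83, 8.99 and 8.98 on those labelled activated B. On the arrays labelled resting T it read 7.58, 7.69 and 7.60, and for the label activated T 8.64, 8.72 and 8.52. The 4 groups did not overlap and ran from resting B at 9.83 ± 0.04 through activated B at 8.93 ± 0.09 and activated T at 8.62 ± 0.10 to resting T at 7.62 ± 0.06. Resting B exceeded resting T by 2.21 ± 0.09 (adjusted p = 6.36e-12). Labelled activation went with a fall in B, -0.90 (adjusted p = 3.84e-07), and a rise in T, 1.0 (adjusted p = 1.30e-07), which brought the 2 activated groups to 0.31 apart (adjusted p = 0.00947). That last call was lost after quantile normalization (0.18, adjusted p = 0.0810).

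Zfp386, the coding gene next to the V segments, has 2 GC boxes as well and was high on the arrays of 1 label. Zfp386 read 8.08, 8.21 and 8.36 on the arrays labelled resting B and 7.31, 7.48 and 7.46 on those labelled activated B. On the arrays labelled resting T it read 7.14, 7.33 and 7.14, and for the label activated T 7.41, 7.44 and 7.47. The arrays labelled resting B lay above all 9 others. They exceeded resting T by 1.02 ± 0.10 (adjusted p = 2.42e-07), activated B by 0.80 (adjusted p = 4.05e-06) and activated T by 0.78 (adjusted p = 1.16e-05). The other 3 groups did not pass against each other, and the largest of their differences was 0.24 between activated and resting T (adjusted p = 0.0724). Vipr2 and Ptprn2 passed limma's test in 0 of 6 comparisons each, and in 0 also at an unadjusted p under 0.05. Vipr2 lay between 4.21 and 4.87 on the 12 arrays, below the background throughout, and its largest difference was 0.17 ± 0.13 (adjusted p = 0.338). Ptprn2 lay between 5.35 and 5.75, just above the background, with a largest difference of 0.11 ± 0.12 (adjusted p = 0.641).

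By side, the 6 neighbours past the constant genes all passed between activated and resting B, Crip1, Crip2, Mta1 and Jag2 upwards and Brf1 and Pacs2 downwards, while of the 4 on the V side Zfp386 and Esyt2 passed, both downwards. These 8 of 10 stand beside 36.5% of all genes called in that comparison, 19.7% upwards and 16.7% downwards, and beside 53.5% of the genes with a mean above the background. The median log2 difference was 0.40 over the constant side and -0.42 over the V side, against -0.02 over all genes. The genes of the wider flanks, described below, did not show this split by side. On the constant side 9 of 21 of them passed, 6 upwards and 3 downwards, with a median of 0.12. On the V side 6 of 11 passed, 4 upwards and 2 downwards, with a median of -0.04. Between activated and resting T, 4 of 6 passed on the constant side, Crip1, Brf1 and Pacs2 upwards and Mta1 downwards, and on the V side 1 of 4, Esyt2 upwards, against 33.7% of all genes, 15.9% upwards and 17.8% downwards, and 49.9% of those above the background. The medians were 0.19 and 0.07, against 0.02. In the wider flanks 2 genes passed upwards and 10 downwards on the constant side, with a median of -0.26. On the V side 2 passed upwards and 3 downwards, with a median of 0.05. The change with labelled activation differed between the labels B and T for 8 of the 10, 3 with the higher change in B and 5 with the higher change in T, against 42.7% of all genes, 21.9% and 20.9% in the 2 directions (30.7% and 14.7% with arrays centred on their medians), and 61.5% of those above the background.

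**Figure D2:**
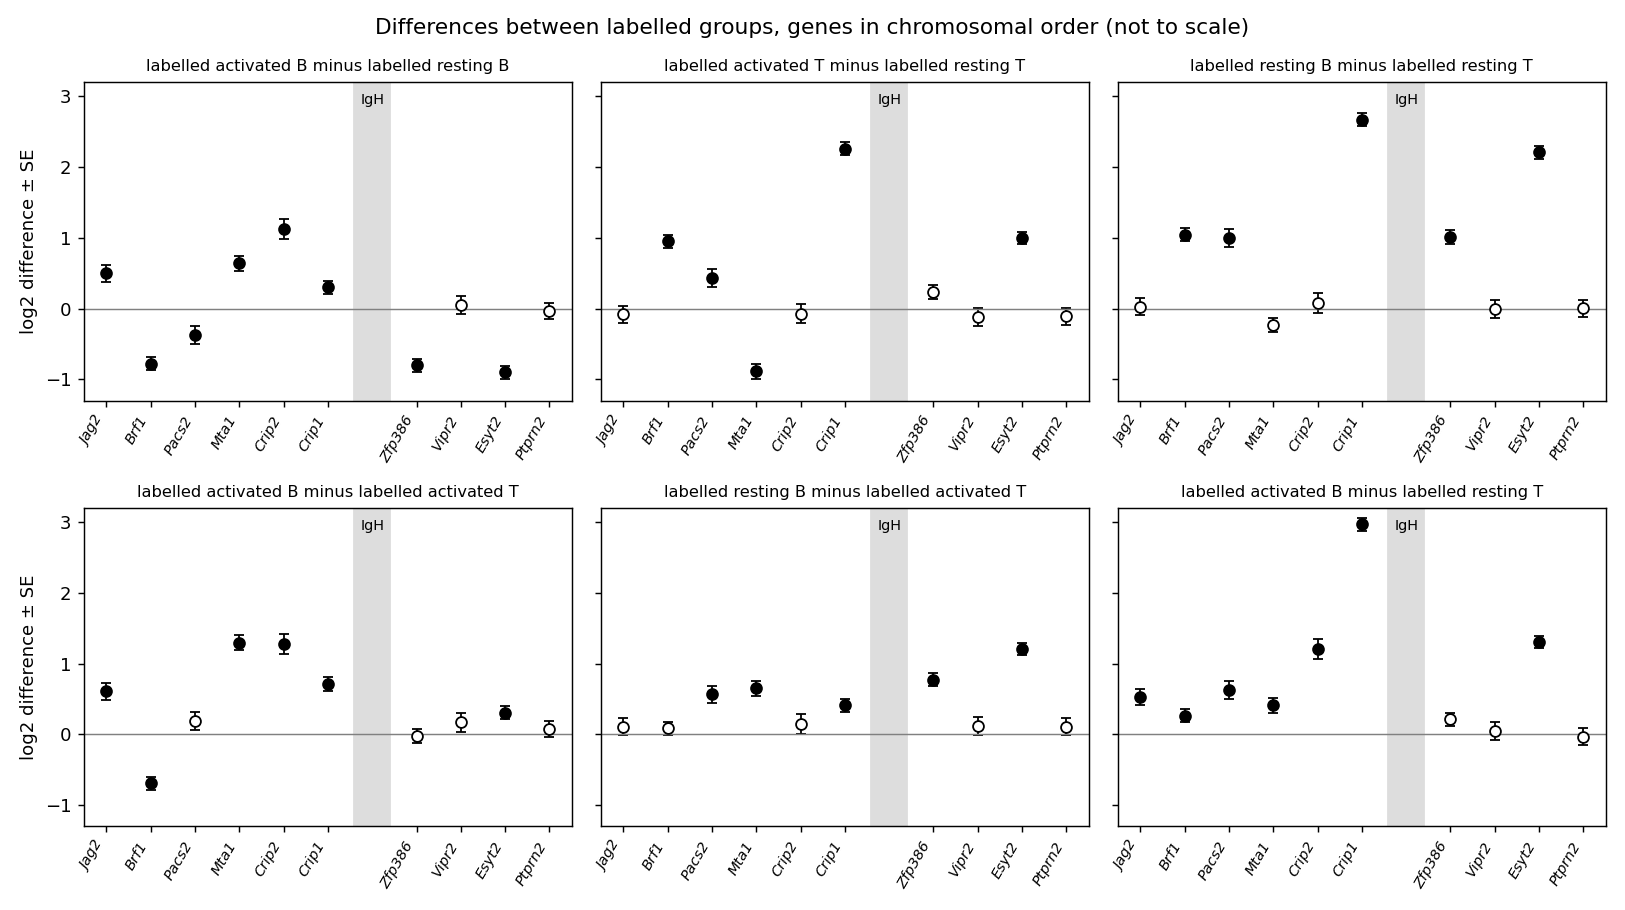
Log2 difference between labelled groups (vertical axis, ± SE from the limma fit) for the neighbours in chromosomal order (horizontal axis, not to scale), with filled points where the adjusted p passed 0.05 and open points where it did not. Crip1 and Esyt2 stand out in resting B against resting T at 2.67 and 2.21, while Vipr2 and Ptprn2 stay near 0.

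Between the labels of lineage, every neighbour that passed at rest was higher in resting B. These were Crip1, Brf1 and Pacs2 on the constant side and Zfp386 and Esyt2 on the V side, so 5 of 10 passed, against 35.1% of all genes, 16.1% upwards and 19% downwards, and 52% of those above the background. With arrays centred on their medians Mta1 passed as well, downwards, at -0.31 and adjusted p = 0.0342. The medians were 0.54 on the constant side and 0.51 on the V side, against -0.00 over all genes. The 32 further measured genes of the wider flanks, described below, went mostly the other way. Of these, 4 passed higher and 14 lower in resting B, with medians of -0.26 on the constant side and -0.07 on the V side. Between activated B and activated T, 5 of 6 passed on the constant side, Crip1, Crip2, Mta1 and Jag2 higher in activated B and Brf1 lower, and 1 of 4 on the V side, Esyt2, also higher, against 40.7% of all genes, 21.8% upwards and 18.9% downwards, and 58.8% of those above the background. The 2 comparisons across both labels ran one way among the 10 neighbours, but not in the wider flanks. There 7 genes passed higher and 5 lower in resting B against activated T, and 8 and 5 in activated B against resting T. In resting B against activated T, 3 of 6 and 2 of 4 passed, all higher in resting B, against 18.5% of all genes, 9.68% upwards and 8.82% downwards, and 27.4% of those above the background. In activated B against resting T, 6 of 6 and 1 of 4 passed, all higher in activated B, against 23% of all genes, 13% upwards and 9.93% downwards, and 34.2% of those above the background. Each group enters 3 of these comparisons, so they share arrays and are not independent of each other.

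The wider flanks, 32 further measured genes of which 21 lie past the constant genes and 11 past the V segments, included Ncapg2, which was at least 14.4-fold higher in activated B than in activated T (adjusted p = 2.66e-13). Here and for the other groups whose mean lies under the background, each array was set to at least 5.21, so the fold is a lower limit. Ncapg2, a condensin II subunit gene, lies between Esyt2 and Ptprn2 and ran from 5.16 ± 0.30 on the arrays labelled resting B to 9.06 ± 0.04 on those labelled activated B and from 8.86 ± 0.07 to 5.0 ± 0.13 between those labelled resting and activated T. It was at least 13.5-fold higher in activated than in resting B (adjusted p = 5.92e-13), where 1 of 3 resting B arrays exceeded the background, and at least 12.6-fold lower in activated than in resting T (adjusted p = 1.19e-12), where 0 of 3 activated T arrays did. The division markers were likewise high under the labels activated B and resting T and low under the other labels. Further out, Rapgef5, an exchange factor for small GTPases, was at least 5.9-fold higher in activated than in resting B (adjusted p = 1.42e-09), with 2 of 3 resting B arrays above the background. Cdca7l, a cell division cycle associated gene, was 2.63 log2 higher in activated B than in activated T (adjusted p = 1.90e-11). On the constant side Pld4, an endolysosomal exonuclease, was at least 14.2-fold lower in activated B than in activated T (adjusted p = 1.82e-12), with 2 of 3 activated B arrays above the background. Siva1, a gene of apoptosis signalling, was 2.01 log2 higher in activated than in resting B (adjusted p = 4.13e-09), and Tedc1, a tubulin-related gene between Crip1 and the locus, 1.28 higher (adjusted p = 1.90e-07). Of the 32 genes 26 have a mean above the background. Between activated and resting B 10 passed upwards and 5 downwards, against 19.7% and 16.7% of all genes. Between activated and resting T 4 passed upwards and 13 downwards, against 15.9% and 17.8%. The totals of 15 and 17 of 32 stand beside 36.5% and 33.7% of all genes, and near the 53.5% and 49.9% of genes above the background. Tmem121, the coding gene closest to the constant genes, passed in neither, with differences of 0.06 (adjusted p = 0.790) and 0.16 (adjusted p = 0.387).

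**Figure D3:**
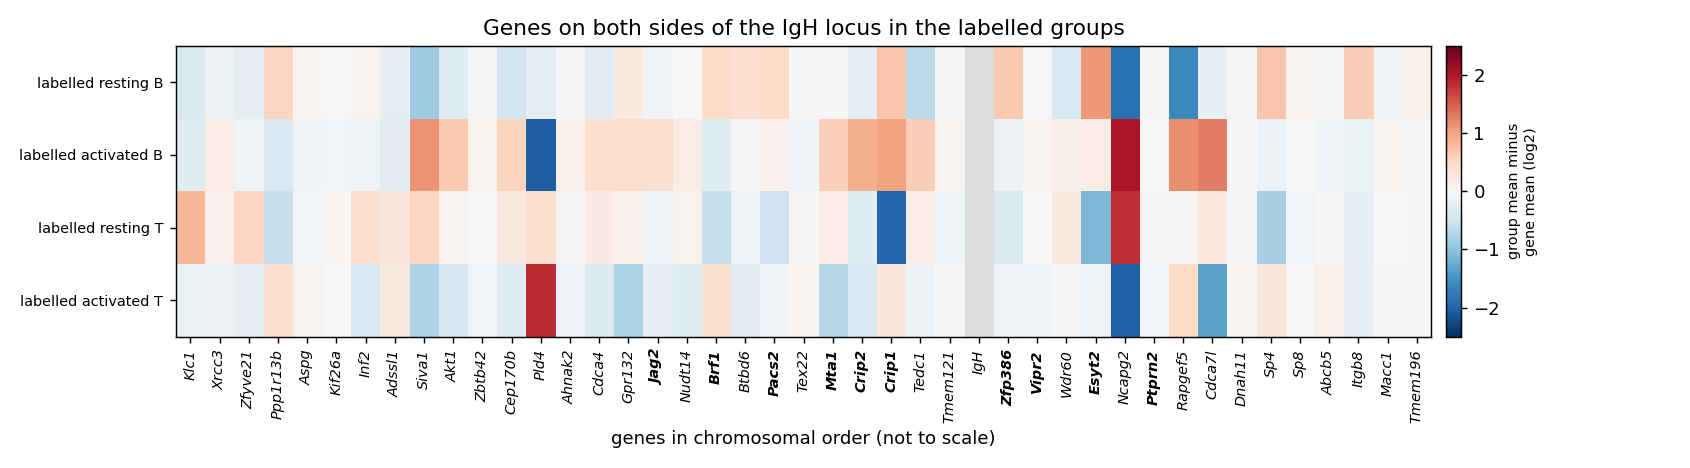
Group mean minus the mean over the 12 arrays (colour scale, log2, from -2.5 to 2.5) for the neighbours (bold) and the wider flanks, in chromosomal order (not to scale) against the 4 labelled groups. The grey column marks the place of the IgH locus and holds no values. Esyt2 and Ncapg2, next to each other, are highest under different labels, resting B for Esyt2 and activated B for Ncapg2.

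The constant genes of the locus itself were measured for Ighm, Ighg3 and Igha, the mu, gamma 3 and alpha chains. Ighm was at 8.81 ± 0.33, 5.56 ± 0.23, 9.0 ± 0.24 and 8.67 ± 0.07 in the order resting B, activated B, resting T and activated T. The arrays labelled activated B were thus the lowest, by 3.24 against resting B (adjusted p = 6.53e-11), in the group where Crip1, Crip2, Mta1 and Jag2 had their highest means. Igha was at 9.60 ± 0.68, 6.04 ± 0.28, 10.83 ± 0.26 and 10.44 ± 0.07, and Ighg3 at 5.13 ± 0.09, 3.70 ± 0.27, 6.88 ± 0.07 and 6.60 ± 0.26, with the same lowest group. Between activated and resting T none of the 3 passed in limma's test, with adjusted p from 0.127 to 0.265 and unadjusted p from 0.0513 to 0.130. The other constant genes were not analysed here.

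**Figure D4:**
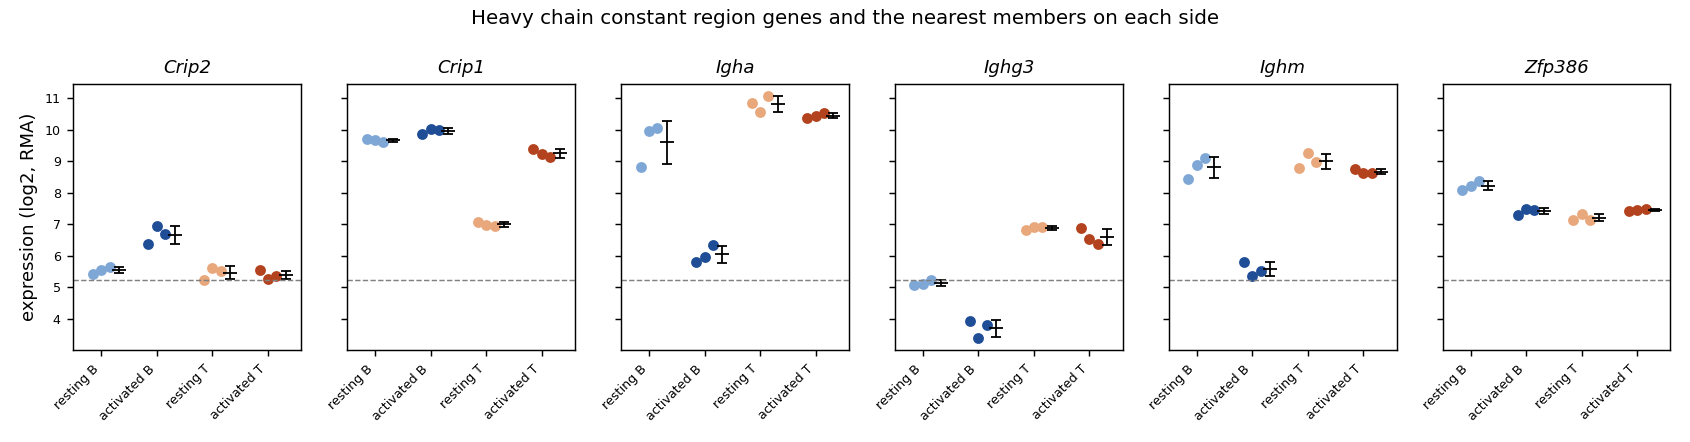
Log2 RMA level (vertical axis) of the constant genes and of Crip1, Crip2 and Zfp386 on the 12 arrays (points) by labelled group, with the group mean ± SD of 3 arrays and the background of 5.21 dashed. Those 3 are the closest to the locus on their side among the 10 neighbours. The constant genes are lowest on the arrays labelled activated B, where Crip1 and Crip2 are highest.

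Genes elsewhere in the genome that work with the neighbours were read from fixed lists, whose counts stand beside 36.5% of all genes called between activated and resting B and 33.7% between activated and resting T, or 53.5% and 49.9% of the genes above the background. Differences here are on the log2 scale. Esyt1, the paralogue of Esyt2, was at 10.05 ± 0.06, 10.10 ± 0.08, 8.37 ± 0.15 and 9.90 ± 0.06 in the order above, so it shared the low level on the arrays labelled resting T but differed by 0.05 between activated and resting B, which did not pass (adjusted p = 0.777). Of 3 genes of its list 1 passed between activated and resting B, downwards, and 2 between activated and resting T, 1 in each direction. Syt11, another synaptotagmin gene, was 1.52 higher in resting B than in activated T (adjusted p = 4.10e-08). Pacs1, the paralogue of Pacs2, was 0.74 lower in activated than in resting B (adjusted p = 0.000397) and 0.84 higher in activated than in resting T (adjusted p = 0.000127). Of 4 genes of VIP and PACAP signalling 1 passed between activated and resting B and between activated and resting T, Vipr1 both times. This VPAC1 receptor was above the background unlike Vipr2 and was 1.39 higher in resting B than in resting T (adjusted p = 2.77e-08). Of 12 NuRD genes 5 passed upwards and 1 downwards between activated and resting B, and 1 and 6 between activated and resting T, so that 6 and 7 of 12, all above the background, stand near the shares of genes above it. Rbbp7 and Hdac2, a histone binding and a deacetylase subunit, were 1.37 and 1.36 higher in activated B than in activated T, with adjusted p = 9.56e-09 and 2.19e-09. Of 20 measured genes of RNA polymerase III and its factors 6 passed upwards and 2 downwards between activated and resting B, and 4 and 4 between activated and resting T. These 8 of 20 in each lie between the shares of all genes and those of genes above the background. Gtf3c5 and Gtf3a, a subunit of TFIIIC and the factor TFIIIA, were 1.01 and 0.94 higher in activated B than in activated T (adjusted p = 1.56e-07 and 6.34e-07), where Brf1 was lower.

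Of 19 Notch pathway genes 1 passed upwards and 8 downwards between activated and resting B, and 7 and 3 between activated and resting T. Of all genes 19.7% passed upwards and 16.7% downwards in the former and 15.9% and 17.8% in the latter, and the totals of 9 and 10 of 19 are near the 53.5% and 49.9% of genes above the background. The gene that rose in B was Rbpj, the DNA binding factor of the pathway, by 3.13 on the log2 scale (adjusted p = 4.19e-13), and it was 3.34 higher in activated B than in activated T (adjusted p = 1.33e-13), whereas Hes1, a target of Notch signals, was at least 5.76-fold lower (adjusted p = 6.96e-09), with 2 of 3 activated B arrays above the background. Of 4 LIM domain genes 2 passed upwards between activated and resting B, and 1 in each direction between activated and resting T, shares close to those of genes above the background. Csrp1, of the same domain type as Crip1 and Crip2, was 1.82 higher in activated B than in activated T (adjusted p = 4.39e-10), and Crip3 0.78 lower (adjusted p = 5.80e-06). Of 4 genes listed with Ptprn2 0 passed limma's test between activated and resting B, and 0 at an unadjusted p under 0.05. Between activated and resting T 1 of 4 passed, Chgb, a granin of dense core vesicles (adjusted p = 0.0379), with means of 5.19 and 4.87 that both lie under the background.

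The pattern of each neighbour above the background was also set beside that of other genes over the 12 arrays. By Pearson's r across 12161 other genes above the background, Crip1 was most like Esyt1 (r = 0.990), Arrb1 (0.989) and Tent5a (0.988), and Esyt2 most like Slc9a9 (0.996), Cast (0.993) and Il27ra (0.992). Brf1 was most like Adgre5 (0.990), Il17ra (0.990) and Sp3 (0.987), and Mta1 most like Arf5 (0.985), Nup210 (0.980) and Socs3 (0.979). Zfp386 came closest to Ndrg3 (0.985), Rcbtb2 (0.984) and Nrp1 (0.982). Crip2 was most like Adam8 (0.969), Elmo2 (0.967) and Lag3 (0.966), Pacs2 like Agap2 (0.967), Ube2d3 (0.966) and Fam234a (0.965), and Jag2 like Kremen2 (0.948), Ggt7 (0.942) and Ormdl3 (0.931). Ptprn2, which passed in no comparison, reached 0.878 with Hmx2, 0.864 with Vgll2 and 0.845 with Shd. The 12 points fall into 4 groups and share their arrays, and the values are a description only.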

How the data were processed

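RNA of 12 mouse spleen cell samples was labelled with a whole transcript kit and hybridised to 1-colour Affymetrix gene arrays. The values are log2 signals that the authors deposited after RMA, which corrects background and brings all arrays to a near common distribution, so changes near the background are compressed and a shift of all genes is removed. Array medians lay between 5.50 and 5.68. Scanner files were not used here.

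Of 34760 probe sets 21640 had 1 gene symbol, 1321 several and 11799 none, and only the first kind was used. Where several probe sets read a gene, as for 954 genes, the brightest on average stood for it, which gave 19937 genes. The 4 labelled groups were fitted together with limma 3.58.1 in R 4.3.3 (lmFit, eBayes, 8 residual degrees of freedom) without a block, and 6 differences of 2 groups and the difference of the B and T effects were tested. P-values were adjusted by Benjamini-Hochberg over all genes, and 0.05 was the threshold. No 2 arrays shared more than 0.0690% identical values. The number of arrays limits the precision. In simulated data for activated against resting B on all genes, the fit found 32 of 50 changes of 0.5 log2, 93 of 100 of 1 and 50 of 50 of 2, with 8 false among 183 calls. No other gene was changed there, a far smaller share than the 36.5% called in the data. The adjustment is stricter in that setting, so these rates need not hold for the reported fit.

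The neighbours and gene lists were chosen with earlier results of these data known. The text names all 10 neighbours, the 3 genes of each wider flank and up to 2 of each partner list with the largest called difference between any 2 groups, and the 3 genes most like each neighbour. Tmem121 was added after its values were seen. Promoter windows came from a RefSeq promoter table of GRCm38.p6, which held 9 of the 10 neighbours. All 10 gene IDs were found in the RefSeq gene table with the same symbol. Titles number the B samples 1 to 3 and the T samples 4 to 6. Deviations of same-numbered arrays correlated at 0.22, 0.16 and 0.23 in T and at -0.06, 0.06 and 0.25 in B, so the numbers met the rule for pairs (every value over 0.1) in T and not in B. The reported fit has no block, and a fit with the number as a block was an alternative for both. Other scalings, filters, probe set rules, fits and left-out arrays were tried as alternatives.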

Additional observations from a re-analysis of the deposited data

Results flagged for a closer look

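For 8 of the 10 neighbours the log2 change with labelled activation differed between the labels B and T by limma's test of the difference, against 42.7% of all genes. The difference, B minus T, was 1.53 ± 0.15 (SE) for Mta1, from 0.64 in B and -0.88 in T (adjusted p = 1.82e-07), and -1.73 ± 0.13 for Brf1, from -0.78 and 0.95 (adjusted p = 8.41e-09). It was -1.90 ± 0.13 for Esyt2, from -0.90 and 1.0 (adjusted p = 1.81e-09), and -0.81 ± 0.18 for Pacs2, from -0.37 and 0.44 (adjusted p = 0.00116). In these 4 genes the 2 effects had opposite signs.

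Crip1 had -1.96 ± 0.13, since it rose by 0.30 in B and by 2.26 in T (adjusted p = 2.31e-09). Crip2 had 1.20 ± 0.19 (adjusted p = 6.51e-05), Jag2 0.58 ± 0.17 (adjusted p = 0.00856) and Zfp386 -1.04 ± 0.14 (adjusted p = 7.07e-06), and for these 3 only the effect in B passed on its own. The lineage and division genes go against the labels, and their part in these differences was not tested.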

How the results depend on the processing

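The number of neighbours called stayed within 1.5 times of the reported one under every alternative run, and no call reversed. Leaving out each array in turn gave 7 to 8 called neighbours in activated against resting B, 4 to 6 in activated against resting T, 5 to 6 in resting B against resting T, 6 to 7 in activated B against activated T, 5 in resting B against activated T, 6 to 7 in activated B against resting T and 8 in the difference of effects. With the replicate number as a block the counts were 8, 5 and 8 for the effects in B, in T and their difference, and no call changed. B and T samples share no numbers, so comparisons across them could not be paired.

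Single calls near the threshold moved, and the cause was not tested. In activated against resting B, Crip1 was lost without resting B array 3 (adjusted p = 0.0553), activated B array 2 (0.0716) or 3 (0.0549), and Pacs2 without resting B array 1, where its log2 difference went from -0.37 to -0.25 (adjusted p = 0.158), or activated B array 1 (0.124). In activated against resting T, Pacs2 was lost without resting T array 4 (0.0613) or activated T array 5 (0.0533), while Zfp386 passed after quantile normalization (0.0456), with genes under the background dropped (0.0414) and without resting T array 5 (0.0400). Brf1 in activated B against resting T was lost without any 1 of 9 of the 12 arrays, with differences from 0.23 to 0.30 and adjusted p from 0.0520 to 0.163. Mta1 passed in resting B against resting T with median centring (-0.31, adjusted p = 0.0342), array weights (0.0386) or without resting T array 6 (0.0286). In activated B against activated T, Pacs2 passed with median centring (0.0475), and Vipr2, which lies under the background, without activated B array 1 (0.35, adjusted p = 0.0206).

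Median centring moved the median of all genes by 0.11 in the B effect, -0.10 in the T effect, 0.13 between the activated groups and 0.21 in the difference of effects, where quantile normalization moved it by 0.13. With median centring upward calls made up 66.6% of the calls among all genes in the B effect in place of 54.1%, 33.9% in place of 47.3% in the T effect, 68.5% in place of 53.5% between the activated groups and 67.6% in place of 51.2% in the difference of effects. Between resting B and resting T they made up 36.5% in place of 45.9%. The filter on low levels left 9 neighbours in the fit. No neighbour has more than 1 probe set, so a fit of each probe set was not run.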
